A study of Mus musculus with 96 samples.

Results

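The cells described here are mouse preoptic neurons with Gad1 mRNA, and the comparison is between those that responded to warming and those that did not. Gad1 encodes glutamate decarboxylase, the enzyme that makes the inhibitory transmitter GABA. A cell was kept where Gad1 reached 10 CPM or more, CPM being a gene's count divided by the cell's total count and scaled to 1000000. This left 25 of the 96 cells of the series: 13 of the 21 cells labelled warm-sensitive and 12 of the 24 labelled temperature-insensitive that fired action potentials. The question the labels pose is which genes differ between the firing classes, and here the transmitter type was held as constant as Gad1 allows.

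All cells came from C57BL/6N mice aged 2 to 3 months, with no transgene or treatment named. Each was a neuron of the hypothalamic preoptic area that was recorded in the whole-cell patch-clamp mode and then picked with a glass pipette. Its RNA was amplified with Smart-seq2 and made into a library with Nextera XT (Patch-seq, the joining of recording and sequencing of 1 cell). The groups used are warm-sensitive Gad1-positive cells and insensitive Gad1-positive cells, with the 8 warm-sensitive and 12 insensitive cells under 10 CPM of Gad1 as a second pair. Gad1-positive cells of the silent and cold-sensitive classes are given for context. No label names an animal, a slice or a day, so each group counts as 1 sample and no test was made. Intervals on shares of cells treat the cells as independent draws, and intervals on summed counts cover the counting of reads only. Neither covers differences between animals. Standard deviations are over cells. Because a level here is a share of 1 picked cell's RNA, less of an mRNA and more of all other RNA cannot be told apart.

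The preoptic area holds neurons that sense the temperature of the brain and of the skin and that drive heat loss or heat production. Some of its neurons fire faster as the tissue warms, and these warm-sensitive cells are found among both GABA-releasing and glutamate-releasing types. GABA is made from glutamate by the decarboxylases Gad1 and Gad2, loaded into vesicles by the transporter Slc32a1 and broken down by Abat.

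Gad1 itself chose the cells, so its level is a description. It ranged over 56.1, 256 and 2598 CPM (lowest, median and highest) in the warm-sensitive cells and 31.9, 177 and 1022 CPM in the insensitive cells, so the groups overlapped. The threshold fell in a wide gap among warm-sensitive cells, where the cell just inside it had 56.1 CPM and the cell just outside it 5.94 CPM. Among insensitive cells the nearest values were 31.9 CPM inside and 9.23 CPM outside. By the same threshold 3 of 10 silent sensitive, 12 of 18 silent insensitive and 3 of 5 cold-sensitive cells were Gad1-positive.

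The other decarboxylase gene was found in most of these cells. Gad2 reached 10 CPM in 9 of 13 warm-sensitive cells (69.2%, exact Clopper-Pearson 95% interval 38.6 to 90.9) and 9 of 12 insensitive cells (75%, 42.8 to 94.5). Under 10 CPM of Gad1 it did so in 1 of 8 warm-sensitive and 5 of 12 insensitive cells. Slc32a1, which defines GABA release, was scarce: 1 of 13 warm-sensitive and 3 of 12 insensitive Gad1-positive cells reached 10 CPM. Slc17a6, the vesicular glutamate transporter of the hypothalamus, was found in 2 of 13 warm-sensitive and 3 of 12 insensitive cells, and in 6 of 8 and 9 of 12 of the cells of these classes under 10 CPM of Gad1. Slc17a7 and Slc17a8, the transporters of other glutamate neurons, reached 10 CPM in none of the 25 cells.

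The libraries of the Gad1-positive classes were not alike. Rn45s, the ribosomal RNA precursor, took a median of 73.9% of the counts in warm-sensitive cells (29.3 to 90.6%) and 45.4% in insensitive cells (38.2 to 72.1%). Counts outside Rn45s had a median of 320146 in warm-sensitive and 848738 in insensitive cells, and genes with a count numbered 3301 (1615 to 4819) and 4188.5 (3336 to 7210). Thinned to 100000 counts outside Rn45s, which leaves out 1 warm-sensitive cell, the median was still 2235 genes in warm-sensitive cells and 3041.5 in insensitive cells. The letter in a cell's title, whose meaning the labels do not give, was also uneven: F held 4 warm-sensitive and 1 insensitive cells and D held 3 cells, all insensitive. Over the whole series the totals ran from 465167 to 3660726 counts per cell.

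**Figure D1:**
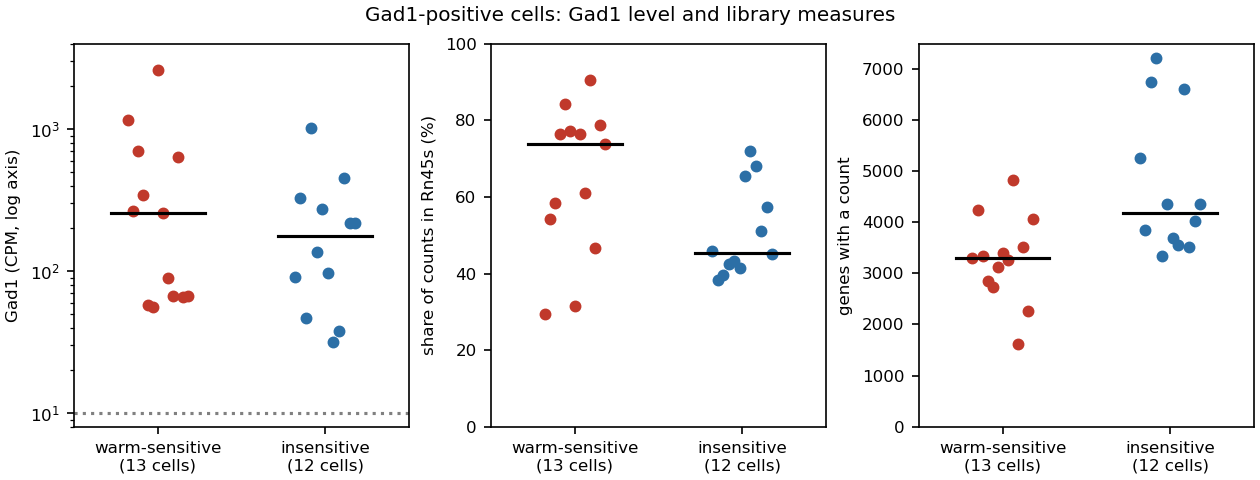
Gad1 level (CPM, log axis; dotted line, 10 CPM), share of counts in Rn45s (percent) and number of genes with a count, for the 13 warm-sensitive (left) and 12 insensitive (right) Gad1-positive cells; each point is a cell and each bar a median. Gad1 overlapped between the classes, while the median Rn45s share was 73.9% in warm-sensitive cells and 45.4% in insensitive cells.

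Most genes were lower in the warm-sensitive cells, so each gene is read against the median gene. A gene was eligible where at least 25% of the cells of either class, and at least 3 cells, reached 10 CPM, which means 4 of 13 warm-sensitive or 3 of 12 insensitive cells. The difference used throughout is the mean of log2(CPM + 1) over warm-sensitive cells minus that over insensitive cells, a scale that understates the change of low genes. Over the 5253 eligible genes its median was -1.33, with 513 genes higher and 4740 lower in warm-sensitive cells. Genes at least 2 above that median numbered 218, or 4.15% of those eligible, and genes at least 2 below it numbered 183, or 3.48%. These genes are called past the fold below. In the cells under 10 CPM of Gad1 the median was -1.57 over 5014 genes, with 311 genes (6.2%) past the fold upwards and 249 (4.97%) downwards.

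The 12 lower genes named here had the largest negative differences among genes that met the naming rule given with the processing. That rule also asks that the share of cells at 10 CPM differ the same way. These 12 genes reached 10 CPM in 8 to 12 of the 12 insensitive cells and in 0 to 3 of the 13 warm-sensitive cells. Ndufb9 and Uqcrc2 belong to the respiratory chain. Ndufb9, an accessory subunit of respiratory complex I (chromosome 15, 58933756 to 58939488, plus strand, mm10), had 0.751, 1.40 and 102 CPM (lowest, median and highest) in warm-sensitive cells, against 37.9, 335 and 1004 CPM in insensitive cells. It reached 10 CPM in 2 of 13 warm-sensitive cells and in 12 of 12 insensitive cells. Of those 2 cells only the higher one lay within the insensitive range. Mean log2(CPM + 1) was 2.04 ± 1.76 in warm-sensitive and 8.18 ± 1.33 in insensitive cells (SD, n = 13 and 12 cells), a difference of -6.14. Left out one at a time, no cell moved that difference outside -6.53 to -5.98.

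Cs, citrate synthase, which opens the citric acid cycle (chromosome 10, 128337734 to 128362479, plus strand), reached 10 CPM in 0 of 13 warm-sensitive and 9 of 12 insensitive cells. The 0 of 13 allows a share of up to about 23.1%, an approximate limit taken as 3 divided by the number of cells. The lowest, median and highest values of Cs were 0, 0.465 and 8.17 CPM in warm-sensitive cells and 0, 152 and 359 CPM in insensitive cells. The summed counts gave 0.971 CPM (exact Poisson 95% interval 0.566 to 1.55) over the warm-sensitive cells and 153 CPM (148 to 158) over the insensitive cells. Uqcrc2, a core subunit of complex III, had a median of 0.931 CPM in warm-sensitive and 262 CPM in insensitive cells, a difference of -5.21. C1qbp, a protein of the mitochondrial matrix, was at 10 CPM in 0 of 13 warm-sensitive and 8 of 12 insensitive cells, a difference of -5.01.

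Fez1, an adaptor that ties cargo to the axonal motor kinesin (chromosome 9, 36821864 to 36878924, plus strand), showed the same split. No warm-sensitive cell exceeded 1.02 CPM, whereas 9 of 12 insensitive cells reached 10 CPM, with a median of 125 CPM and a highest value of 333 CPM. Its summed counts came to 0.400 CPM (0.161 to 0.824) over the warm-sensitive cells and 143 CPM (138 to 148) over the insensitive cells. The remaining 3 insensitive cells were at 0 CPM and so overlapped the warm-sensitive cells. The difference was -5.18, and between -5.68 and -4.92 with any 1 cell left out.

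The other lower genes have varied roles. Eef1e1, a factor of the aminoacyl-tRNA synthetase complex, was at 0 CPM in 11 of 13 warm-sensitive cells and 5.59 CPM at most. It reached 10 CPM in 9 of 12 insensitive cells, with a median of 143 CPM and a difference of -5.49. Psmc3, an ATPase of the proteasome's regulatory particle, stayed at or under 2.59 CPM in the 13 warm-sensitive cells and had a median of 129 CPM in the insensitive cells, a difference of -4.81. Psma6, a subunit of the proteasome's core ring, differed by -4.76, with 2 of 13 warm-sensitive and 10 of 12 insensitive cells at 10 CPM. Stub1, a ubiquitin ligase that works with chaperones, differed by -4.95, with 1 of 13 and 10 of 12 cells. Polr2m, a subunit of RNA polymerase II, was at 10 CPM in 12 of 12 insensitive cells and in 3 of 13 warm-sensitive cells. Its highest value of all was in a warm-sensitive cell, at 1457 CPM. Pithd1 (-5.38) and the splicing factor Bcas2 (-4.95) made up the 12.

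Taking these 12 genes together, a warm-sensitive Gad1-positive cell held between 0 and 3 of them at 10 CPM (median 0), and an insensitive one between 7 and 12 (median 10.5). The genes were picked for this split, so it is only a description. For comparison, the same cells held a median of 22.3% (8.09 to 39.3%) and 40.3% (23.7 to 75.8%) of all eligible genes at that level. In cells that played no part in picking the genes, the 8 warm-sensitive cells under 10 CPM of Gad1 held 3 to 7 of them (median 4) and the 12 insensitive ones 2 to 12 (median 9.5). These cells also differed over all eligible genes, holding a median of 19.3% in the warm-sensitive and 35.5% in the insensitive class. Among Gad1-positive silent cells the sensitive ones held 3 to 7 in 3 cells and the insensitive ones 1 to 12 in 12 cells (median 5.5). The 3 cold-sensitive Gad1-positive cells held 3 to 11. Of all eligible genes the silent sensitive, silent insensitive and cold-sensitive Gad1-positive cells held medians of 32.1%, 28.95% and 42.6%. In the cells under 10 CPM of Gad1 the classes overlapped in this number.

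**Figure D2:**
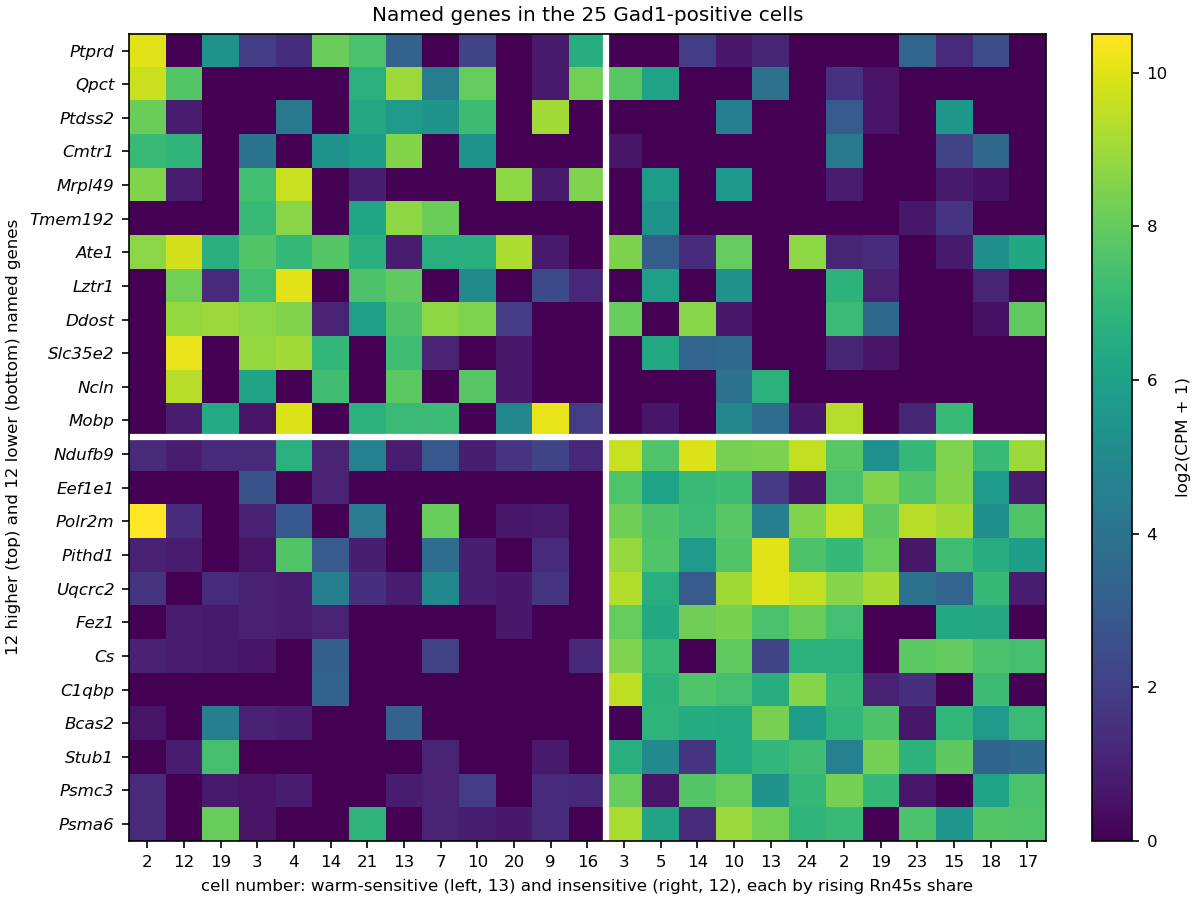
Level of the 12 named higher (top) and 12 named lower (bottom) genes, as log2(CPM + 1), in each of the 13 warm-sensitive (left) and 12 insensitive (right) Gad1-positive cells, ordered within each class by rising Rn45s share. The lower genes, which were picked for this split, are dark in most warm-sensitive cells, and each higher gene is bright in 5 to 10 of the 13.

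The start regions of the genes that no warm-sensitive cell held at 10 CPM are shown for 3 members matched in the RefSeq promoter table (GRCm38.p6), as the 150 bases before the RefSeq start on the gene's own strand. Capitals mark a match to GCGCA and GCGC with any 1 base between them, searched on both strands as the core of the site that the respiratory regulator NRF1 is known to bind.
Eef1e1, chr13:38659029-38659178, minus strand: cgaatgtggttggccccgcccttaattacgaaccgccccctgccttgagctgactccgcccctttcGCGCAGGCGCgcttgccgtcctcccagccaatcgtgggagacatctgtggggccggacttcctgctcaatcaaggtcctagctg
C1qbp, chr11:70983027-70983176, minus strand: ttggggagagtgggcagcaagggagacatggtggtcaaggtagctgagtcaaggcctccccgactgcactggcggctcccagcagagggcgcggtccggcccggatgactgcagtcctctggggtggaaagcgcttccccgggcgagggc
Cs, chr10:128337577-128337726, plus strand: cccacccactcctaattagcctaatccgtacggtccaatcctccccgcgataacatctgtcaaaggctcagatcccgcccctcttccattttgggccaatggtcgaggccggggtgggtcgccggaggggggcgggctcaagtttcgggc
Over the 250 bases before the start, the motif was in 3 of the 9 matched lower genes (33.3%) and 1 of the 9 matched higher genes (11.1%). It was in 11.7% of the 4035 matched eligible genes and in 4.23% of all 27025 genes searched, a set that left out 1 chromosome. A gene with several starts was counted where any of them held the motif. Among all 145 matched genes past the fold downwards 13.1% held it, close to the eligible genes, and of the 43 matched genes of oxidative phosphorylation 18.6% did.

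The 12 higher genes, named by the same rule, were each found in only part of the warm-sensitive cells. Ptprd, a receptor tyrosine phosphatase that organises synapses (chromosome 4, 75941238 to 78211961, minus strand), had the largest positive difference of them, 2.72. It had 0, 3.45 and 1042 CPM (lowest, median and highest) in warm-sensitive cells, against 0, 0.334 and 9.81 CPM in insensitive cells. It reached 10 CPM in 5 of 13 warm-sensitive cells (38.5%, 13.9 to 68.4) and 0 of 12 insensitive cells. The latter allows a share of up to about 25% by the approximate limit used for Cs. The other 8 warm-sensitive cells lay within the insensitive range, so the classes overlapped.

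Ate1, which adds arginine to proteins and so marks them for breakdown (chromosome 7, 130391493 to 130520369, minus strand), was the most widely found of the higher genes. It reached 10 CPM in 10 of 13 warm-sensitive cells and 5 of 12 insensitive cells, with medians of 98.5 and 4.46 CPM and highest values of 873 and 422 CPM. The classes overlapped over nearly their whole range. Ddost, a subunit of the enzyme that attaches sugar chains to new proteins, had medians of 187 and 0.525 CPM in warm-sensitive and insensitive cells, with 8 of 13 and 5 of 12 cells at 10 CPM. Qpct, which cyclises the first residue of secreted peptides, was found in 7 of 13 and 3 of 12 cells of these classes, a difference of 2.54.

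Ptdss2, which makes phosphatidylserine, was at 10 CPM in 7 of 13 warm-sensitive and 2 of 12 insensitive cells, a difference of 2.48. Cmtr1, which methylates the mRNA cap, had the same counts of cells and a difference of 2.45. Mrpl49, of the mitochondrial ribosome (2.36), the lysosomal membrane protein Tmem192 (2.34) and Lztr1, an adaptor of a ubiquitin ligase (2.24), followed. Slc35e2, of a family of sugar-nucleotide transporters (2.13), and Ncln, a membrane protein of the endoplasmic reticulum (2.12), were each found in 5 of 13 warm-sensitive and 2 of 12 insensitive cells.

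The last of the higher genes was a glial one. Mobp, a myelin protein made by oligodendrocytes, reached 10 CPM in 7 of 13 warm-sensitive and 4 of 12 insensitive cells, a difference of 1.98. Of the 12 oligodendrocyte markers 7 were eligible, and Mobp was the only one past the fold upwards. Their summed level had a median of 150 CPM (3.09 to 2416) in warm-sensitive cells and 297 CPM (1.13 to 2717) in insensitive cells. Mog was at 0 in all 25 cells. Astrocyte markers summed to a median of 784 CPM (2.55 to 2808) and 779 CPM (3.40 to 10205), and microglial markers to 912 CPM (5.26 to 7763) and 1248 CPM (3.97 to 17037), in warm-sensitive and insensitive cells. None of the 7 eligible astrocyte and 12 eligible microglial markers was past the fold in either direction. Endothelial and ependymal markers had medians of 0 CPM in warm-sensitive cells and 19.9 and 0 CPM in insensitive cells, and Cldn5 and Pecam1 were at 0 CPM in all 25 cells. The part of glial RNA in the differences above was not tested.

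The named differences were recomputed with other cells and scalings. The genes were picked for large and stable differences in these same cells, so that they persisted in subsets or rescalings of them is a description and gives no independent support. In cells with at most 60% of counts in Rn45s, 5 warm-sensitive and 9 insensitive, all 24 genes kept their direction and remained past the fold. The lower genes then differed by -6.76 to -4.08 and the higher genes by 1.26 to 4.39. With totals taken without Rn45s, or with cells thinned to 100000 counts outside Rn45s, all 24 again remained past the fold. With Gad2 in place of Gad1 (10 warm-sensitive and 14 insensitive cells) 9 of the lower and 11 of the higher genes did, and Mrpl49 changed sign. With a pseudocount of 10 CPM 11 of the lower and 10 of the higher genes did. Compared only between cells that share a title letter, the lower genes differed by -5.62 to -3.82 and the higher genes by 1.11 to 4.05. When counts were summed over a class before the ratio was taken, so that single cells with high counts weigh more, all 24 kept their direction and 9 of the lower and 11 of the higher genes stayed past the fold.

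In the cells under 10 CPM of Gad1 nearly all genes were lower in the warm-sensitive class, 4498 of 5014. Of the 12 lower genes 10 were lower there, a share near that background, and 8 of 12 lay below that pair's median gene of -1.57. Fez1 differed by -4.10 there, with 0 of 8 warm-sensitive cells and 8 of 12 insensitive cells at 10 CPM. Ndufb9 differed by -3.31 and Cs by -3.28, both less than in the Gad1-positive cells. Bcas2 and Psma6 had the opposite sign, at 0.94 and 0.71. Of the 12 higher genes none was higher in warm-sensitive cells under 10 CPM of Gad1, where they differed by -3.08 to -0.10. Only 6 of the 12 were eligible there, and 3 of these 6, Ptprd, Tmem192 and Mobp, lay above the median gene. The other 6 were near 0 in most cells of both classes, which by itself places them above a median gene of -1.57. Whether these pairs of cells differ in their response was not tested.

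**Figure D3:**
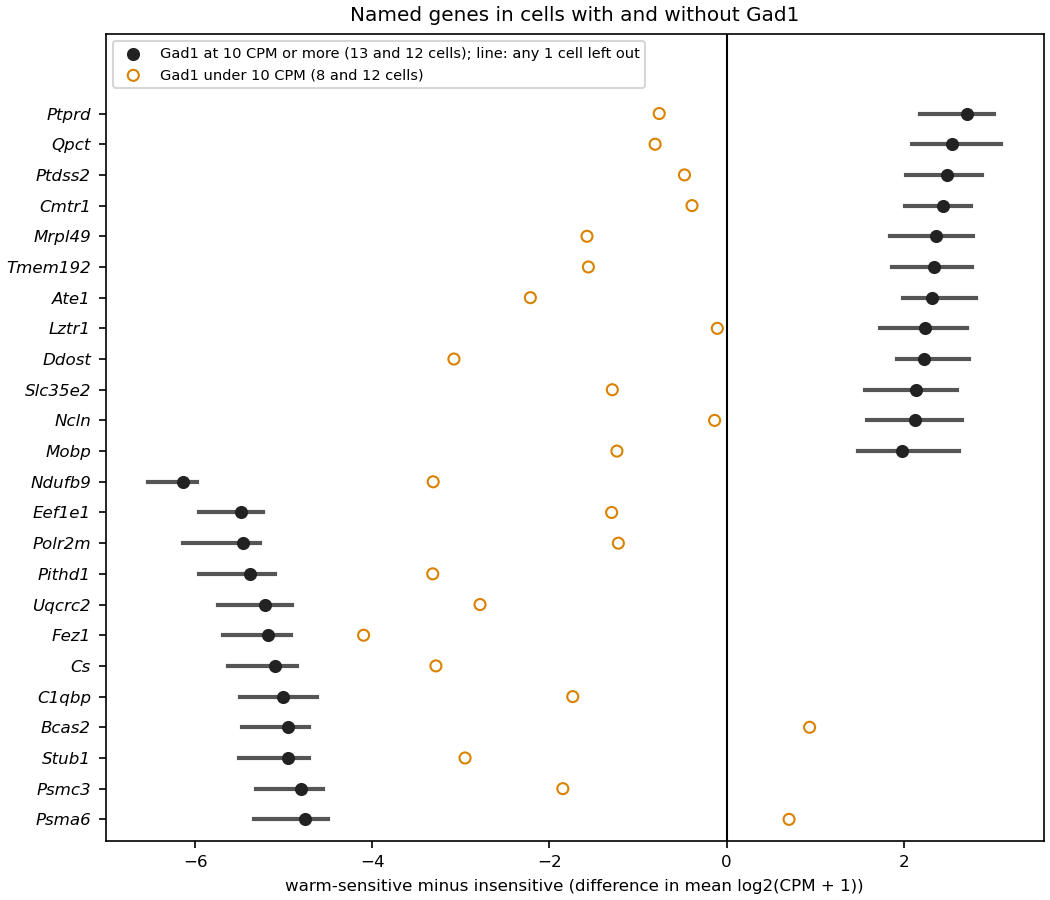
Difference in mean log2(CPM + 1), warm-sensitive minus insensitive, of the 24 named genes in Gad1-positive cells (filled points; the line spans the values with any 1 cell left out) and in cells under 10 CPM of Gad1 (open points). In the cells under 10 CPM all 12 higher genes (6 of them not eligible there) and 10 of the 12 lower genes are negative, as are 4498 of all 5014 eligible genes; the genes were chosen on the filled points.

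Across all genes eligible in both pairs, the lists past the fold had little in common. Of 3828 such genes, 167 were past the fold upwards in Gad1-positive cells and 8 of them, or 4.79%, were so in the cells under 10 CPM, where 6.53% of all 3828 genes were. The 8 were 3.2% of the 250 past the fold there. Downwards 16 genes were shared, 8.94% of the 179 in Gad1-positive cells and 6.75% of the 237 in the other pair, against 6.19% of all genes. These shares lie near the background and are no result about the genes.

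Genes of GABA handling did not move as a block. Of the 8 genes listed 7 were eligible, 4 of them above and 3 below the median gene. Gad2 had medians of 49.6 CPM in warm-sensitive and 244 CPM in insensitive cells, overlapping from 1.27 to 803 CPM, and a difference of -0.40. Abat, which degrades GABA, was found in 2 of 13 warm-sensitive and 7 of 12 insensitive cells, a difference of -2.25. Relative to the median gene that is -0.92, not past the fold. Sv2a, a synaptic vesicle protein, had medians of 2.08 and 151 CPM and was past the fold downwards at -3.66.

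The list medians of receptors for GABA and glutamate lay close to or above the median gene. In any list, a gene near 0 CPM in most cells of both classes has a difference near 0. This by itself places it above a median gene of -1.33, as for Gabra5 (-0.06, with 2 of 13 and 3 of 12 cells at 10 CPM). Of 16 GABA receptor genes 12 were eligible, with a median difference of -0.46, and 8 lay above the median gene. Gabbr1, of the metabotropic GABA-B receptor, was the only one past the fold, at 1.35, with 7 of 13 warm-sensitive and 5 of 12 insensitive cells at 10 CPM. Of the 13 ionotropic glutamate receptor genes 7 were eligible, with a median difference of -1.30 and none past the fold. Gria2 was at 10 CPM in 9 of 13 and 11 of 12 cells of these classes, and Grin2b in 3 of 13 and 8 of 12.

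Sodium channel subunits, which carry the upstroke of the action potential, had the highest list median of those with at least 5 eligible genes, 0.43, with 5 of 6 eligible genes above the median gene. Scn8a had 0, 0 and 319 CPM (lowest, median and highest) in warm-sensitive cells and 0, 0.626 and 33.3 CPM in insensitive cells, and Scn1a reached 10 CPM in 6 of 13 and 5 of 12 of them. Both were past the fold, with differences of 1.10 and 0.77, though Scn8a was near 0 CPM in most cells of both classes. Within title letters these became -0.45 and -0.50, so their direction did not hold there. Potassium channel genes split, with 8 of 14 eligible genes above the median gene. Kcnc2 (0.84) and Kcnd3 (0.74) were past the fold upwards, though Kcnc2 was at -0.72 within title letters. Kcnd2, which carries A-type current, was found in 1 of 13 warm-sensitive and 6 of 12 insensitive cells, a difference of -2.55. Relative to the median gene that is -1.23, not past the fold. Of the 16 calcium channel genes 6 were eligible, 4 below the median gene and none past the fold. Cacna1b, the pore of the N-type channel, had 2 of 13 and 7 of 12 cells at 10 CPM.

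Channels known for sensing heat were scarce in these cells. Of 30 genes for thermosensing and leak channels 5 were eligible, with a median difference of -1.40 and none past the fold. Trpv1, Trpv3 and Trpa1 had no count in the 25 cells, and Trpm2 reached 10 CPM in 1 of 13 warm-sensitive and 1 of 12 insensitive cells. Nalcn, the sodium leak channel, had 5 of 13 and 6 of 12 cells and a difference of 0.02. Trpc5, a cation channel, was found in 0 of 13 warm-sensitive and 4 of 12 insensitive cells, a difference of -1.83. Relative to the median gene that is -0.50.

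Markers of warm-activated preoptic neurons did not separate the classes. Ptgds, which makes prostaglandin D2, reached 10 CPM in 13 of 13 warm-sensitive and 11 of 12 insensitive cells, with medians of 235 and 194 CPM. Its highest value, 37958 CPM, was in an insensitive cell. Adcyap1, which encodes the peptide PACAP, was found in 1 of 13 and 3 of 12 cells, and Bdnf in 0 of 13 and 0 of 12. Calb1, a calcium buffer, had 6 of 13 and 7 of 12. Of 18 genes in this list 4 were eligible, with Igf1r, the insulin-like growth factor receptor, past the fold upwards at 0.95 (4 of 13 and 1 of 12 cells). Sncg, synuclein gamma, was at 10 CPM in 0 of 13 warm-sensitive and 5 of 12 insensitive cells, a difference of -3.00. Relative to the median gene that is -1.68, not past the fold.

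Of 20 preoptic neuropeptide genes only Avp, Pnoc and Penk were eligible. Avp, vasopressin, had medians of 0.863 CPM in warm-sensitive and 54.1 CPM in insensitive cells, with 4 of 13 and 8 of 12 cells at 10 CPM. Pnoc, the nociceptin precursor, was found in 0 of 13 and 3 of 12 cells. Relative to the median gene Avp was at -1.12 and Pnoc at -0.33, neither past the fold. Sst, somatostatin, missed eligibility with 3 of 13 and 1 of 12 cells. Granins and peptide-processing enzymes had a median difference of -0.90 over 11 eligible genes, 7 of them above the median gene and none past the fold. Pam, which amidates peptides, had medians of 1.40 and 160 CPM in warm-sensitive and insensitive cells, whereas the granin Scg2 had 252 and 131 CPM. Of the 12 transcription factors of the GABAergic lineage 2 were eligible, Zfhx3 (0.96, with 4 of 13 and 2 of 12 cells) and Six3 (-1.62, with 2 of 13 and 5 of 12 cells).

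The respiratory, axonal and proteasome lists lay below the median gene. Over all eligible genes 3.48% were past the fold downwards and 4.15% upwards. A gene near 0 CPM in most insensitive cells cannot lie that far down, so such shares also depend on the level of a list's genes. The part of level in them was not tested. Of 56 nuclear genes of oxidative phosphorylation 55 were eligible, with a median difference of -2.01; 42 lay below the median gene, 8 were past the fold downwards and none upwards. The 8 included Sdhc (-4.51), Cyc1 (-4.01) and Uqcrfs1 (-3.99) beside Ndufb9 and Uqcrc2. Atp5h, a subunit of the ATP synthase, had medians of 57.9 CPM in warm-sensitive and 69.3 CPM in insensitive cells, so not every member was low. Of 29 eligible genes of the citric acid cycle and glycolysis 15 lay above and 14 below the median gene, with Cs, Pdhb, Gpi1 and Pdha1 past the fold downwards.

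Axonal transport and cytoskeleton genes had a median of -2.11 over 33 eligible genes. Of these 10 were past the fold downwards, against 3.48% of all eligible genes and with the same limit of level. Kif5c, a kinesin motor, had medians of 0.811 CPM in warm-sensitive and 185 CPM in insensitive cells and a difference of -4.51, and Dctn3, of the dynactin complex, differed by -4.16. Mapt, the axonal protein tau, was past the fold upwards at 0.86, with 8 of 13 and 7 of 12 cells at 10 CPM. All 28 proteasome genes were eligible, with a median of -2.17, 22 below the median gene and 4 past the fold downwards: Psmc3, Psma6, Psmc6 and Psmb3. Synaptic vesicle genes had a median of -2.04 over 18 eligible genes, with Vamp1 (-3.47) and Napa (-3.43) past the fold downwards. Syt1, the calcium sensor of release, was at 10 CPM in all 25 cells, with medians of 214 CPM in warm-sensitive and 305 CPM in insensitive cells.

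These list medians moved with the cells compared and with the scaling. Relative to the median gene they were -0.68 for oxidative phosphorylation, -0.71 for synaptic vesicle genes, -0.78 for axonal genes and -0.84 for the proteasome. In the same order they were -0.51, -0.35, -0.52 and -0.68 with totals without Rn45s, and -0.70, -0.43, -0.70 and -0.71 after thinning, so all 4 stayed below the median gene. In cells with at most 75% of counts in Rn45s (7 warm-sensitive and 12 insensitive) they were -0.08, 0.09, -0.32 and -0.48. In cells with at most 60% (5 and 9 cells) they became 0.70, 0.98, 0.05 and -0.20, and with counts summed over each class 0.20, 0.21, 0.26 and 0.26. In the cells under 10 CPM of Gad1, relative to that pair's median gene, they were 0.13, -0.06, -0.32 and -1.18.

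**Figure D4:**
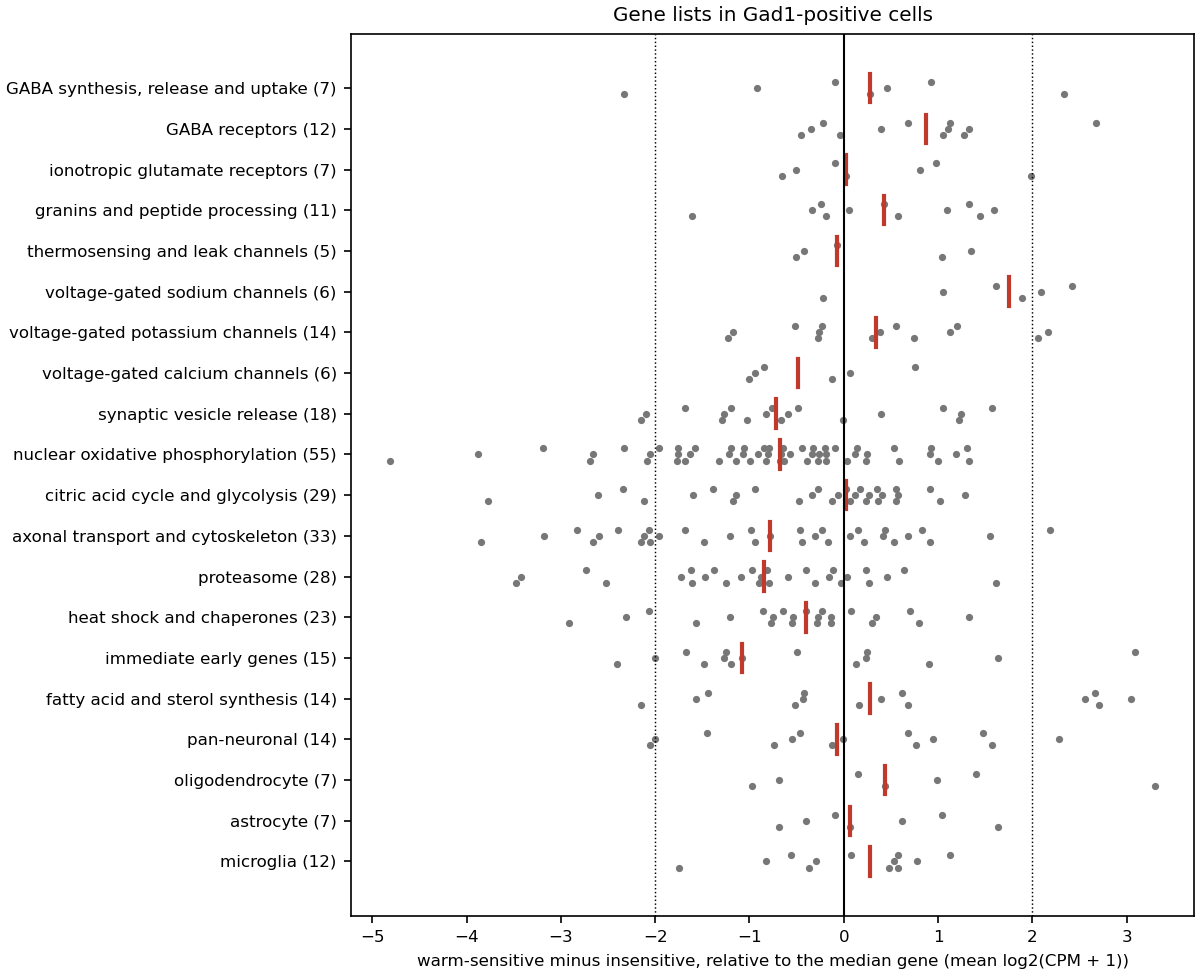
Difference of each eligible gene relative to the median gene (0), warm-sensitive minus insensitive, for the gene lists with at least 5 eligible genes (number in brackets); each grey point is a gene, each red bar the list's median, and dotted lines mark 2 in either direction. Sodium channels have the highest median, and the respiratory, axonal, proteasome and immediate early lists lie to the left.

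Stress, activity and lipid genes held a few strong single genes. Of 23 eligible chaperone genes 17 lay below the median gene, but 16 of 23 lay above it in cells with at most 60% of counts in Rn45s and 14 of 23 with summed counts. Dnajb1, a heat-induced co-chaperone, had medians of 2.33 CPM in warm-sensitive and 184 CPM in insensitive cells, and Hspa8, the constitutive chaperone, had 109 and 221 CPM. Immediate early genes, which neurons switch on within minutes of activity, had a median of -2.41 over 15 eligible genes. Jun (-3.73) and Btg2 (-3.33) were past the fold downwards, and Fos was at 10 CPM in 9 of 13 warm-sensitive and 12 of 12 insensitive cells. Npas4, which is induced by calcium entry, was past the fold upwards at 1.76, with 5 of 13 and 1 of 12 cells. Relative to the median gene the immediate early list's median was -1.08, and also -1.08 after thinning. It was -0.06 and -0.39 in cells with at most 75% and 60% of counts in Rn45s, and -0.43 with summed counts. In the cells under 10 CPM of Gad1 it was 1.03, with 6 of 17 eligible genes past the fold upwards, where 6.2% of all genes were.

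Fatty acid and sterol synthesis was the list with most genes past the fold upwards, 4 of its 14 eligible genes, against 4.15% of all eligible genes. The 4 were Cyp51 (1.71), Sqle (1.38), Fasn (1.34) and Scd1 (1.24). In cells with at most 60% of counts in Rn45s 1 of the list's 10 eligible genes was past the fold upwards. Oxidative phosphorylation then had 5 of 54, the citric acid cycle and glycolysis 6 of 29, and all eligible genes 537 of 4211. Sqle, the squalene oxidase of cholesterol synthesis, was at 10 CPM in 4 of 13 warm-sensitive cells and 0 of 12 insensitive cells, where it did not exceed 1.94 CPM. Cyp51, which acts after it, was found in 5 of 13 and 1 of 12 cells. Fdft1, which makes the squalene that Sqle uses, went the other way, with 2 of 13 and 8 of 12 cells and a difference of -3.48. The list's median was -1.05, close to that of all genes, so the enzymes of the pathway did not share a direction.

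Over 14 eligible pan-neuronal genes the median was -1.39, near the median gene. Meg3, a long noncoding RNA abundant in neurons, had medians of 470 CPM in warm-sensitive and 214 CPM in insensitive cells, with 11 of 13 and 11 of 12 cells at 10 CPM. Tubb3, the neuronal tubulin, had medians of 2.04 and 251 CPM and was past the fold downwards. Exons of 10 of the 24 named genes overlap another annotated gene in GENCODE M21, and whether the authors counted by strand was not given in the sources used here, so reads of such genes cannot be told apart. Among these are Ndufb9, Uqcrc2, Psmc3, Stub1, Ptprd, Cmtr1 and Mobp, while Cs, Fez1, Eef1e1, C1qbp and Ate1 have no such overlap.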

How the data were processed

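RNA of 96 single preoptic neurons was sequenced after patch-clamp recording. The authors deposited whole-number counts for 24054 genes in each cell, and a second table of normalized signal for the same cells. The deposited normalized signal is each cell's CPM times a constant, 0.402 to 5.64 over cells, whose origin was not given in the sources used here. FastQC, STAR, edgeR and mm10 are named, per the submitters' processing notes, without versions; annotation, counter and strand setting were not given in the sources used here.

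Groups follow the labels, 18 unclassified cells entered no comparison, and no cells held identical values. Counts were divided by totals over all genes, Rn45s included, and detection was 10 CPM. The 12 named genes per direction are those with the largest difference whose shares of cells at 10 CPM differ the same way and which keep at least 2/3 of the difference without any 1 cell; predicted and ribosomal protein genes were left out. To these were added 16 marker genes and the 2 highest and 2 lowest eligible genes of each of 26 lists. Further list members named in the text were chosen after their values were seen. The members and lists were chosen with earlier results of these data known. No animal is named, so no test was made. Alternatives were other pseudocounts, library sizes, filters, thinning, Gad1 thresholds, leaving out each cell, cells with less Rn45s (at most 75%, and 60%, the last added after seeing the data), differences within title letters and summed counts. The measures were run on simulated counts in which both classes shared the same profile of levels and of zeros, apart from genes changed by set folds. That simulation does not cover the difference in Rn45s share between the real classes. Mitochondrially encoded genes were not analysed here, and some listed genes are not reported here. Coordinates are from GENCODE M21 (mm10), and promoters from RefSeq (GRCm38.p6). Software was R 4.3.3, edgeR 4.0.16, Python 3.11.15, scipy 1.17.1, pandas 2.3.3, matplotlib 3.10.9 and numpy 2.4.6.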

Additional observations from a re-analysis of the deposited data

Results flagged for a closer look

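Single cells far from the others of their group were sought among the 8 warm-sensitive cells under 10 CPM of Gad1, the only group of 4 to 10 cells in these comparisons. Of 27 measures checked, 10 had 1 cell apart from the rest by Dixon's gap, on the log2 scale for gene levels. Chance flags about 1 in 20 groups of normally distributed values, and genes of 1 cell are not independent. For Ptdss2, Mrpl49, Slc35e2 and Ncln the gap was the whole range (gap over range 1), so the remaining cells were tied. Any level above such a tie is flagged, so that rate does not hold there and the count of 10 cannot be compared with it. Cell 1 had 2590515 total counts. Cell 18 stood apart at 422.1 CPM of Cmtr1, 114.7 CPM of Mrpl49, 51.66 CPM of Tmem192 and 148.9 CPM of Lztr1. Cell 8 had 36.41 CPM of Ptdss2 and cell 17 had 77.02 CPM of Ddost. At lower levels, cell 11 had 1.576 CPM of Qpct and 2.364 CPM of Ncln, and cell 15 had 2.971 CPM of Slc35e2, values of few reads. All 9 genes are among the higher ones in Gad1-positive warm-sensitive cells, so among warm-sensitive cells under 10 CPM of Gad1 the highest level of each stood apart in 1 cell. The 12 insensitive cells were too many for this check.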

How the results depend on the processing

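No paired analysis was possible because the labels number no replicates and no result comes from a test. The median difference of eligible genes, -1.33, was -0.42 without the filter on low genes, -1.97 and -0.66 with pseudocounts of 0.1 and 10 CPM, -0.83 with summed counts and -1.46 to -1.20 with any 1 cell left out. The 218 genes past the fold upwards and 183 downwards became 478 and 447 with a pseudocount of 0.1 CPM, 13 and 26 with 10 CPM, 381 and 287 with totals without Rn45s, 53 and 760 without the filter, 629 and 419 after thinning, 128 and 98 with Gad1 at 1 CPM or more, 535 and 1061 with summed counts, and 537 and 297 in cells with at most 60% Rn45s. Upwards there were 471 with Gad1 at 100 CPM or more, 362 with Gad2 in place of Gad1, 404 without cells holding Slc17a6 and 503 in cells with at most 75% Rn45s. Downwards there were 116 with the Gad1 threshold set without Rn45s and 280 within title letters. With any 1 cell left out they were 217 to 356 and 153 to 222; without warm-sensitive cell 16 there were 356. Lists of at least 5 eligible genes with a median below the median gene numbered 9, but 17 without the filter, 5 in cells with at most 75% or 60% Rn45s and 5 with summed counts (7 to 12 with 1 cell left out). In cells under 10 CPM of Gad1 the median of -1.57 became -2.33 and -0.80 with pseudocounts of 0.1 and 10 CPM, -0.51 without the filter, -2.77 with Gad1 at 1 CPM, -2.59 with at most 60% Rn45s, and -1.70 to -1.56 with 1 cell left out; where 1 warm-sensitive cell is left, these are values of that cell. The sign turned for Kcnc2 (-0.10) and Meg3 (-0.10) with Gad1 at 1 CPM, for Mrpl49 (-0.51) and Mapt (-1.20) with Gad2 in place of Gad1, for Scn1a (-0.18) without cells holding Slc17a6, for Zfhx3 (-0.71), Scn1a (-0.50), Scn8a (-0.45) and Kcnc2 (-0.72) within title letters, and for Sst (-0.0766) in cells with at most 60% Rn45s. The cause was not tested. Genes at 10 CPM rest on few reads, so absence in a cell is only absence at its depth.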

Other observations

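For 3 of the lower genes, the Gad1-positive cells of the other classes had the following values. Ndufb9 reached 10 CPM in 3 of 3 silent sensitive cells, 8 of 12 silent insensitive cells and 3 of 3 cold-sensitive cells. Fez1 was below 10 CPM in all 3 silent sensitive cells and reached it in 6 of 12 silent insensitive and 3 of 3 cold-sensitive cells. Cs was at 10 CPM in 2 of 12 silent insensitive cells, with a median of 0.730 CPM, and in 1 of 3 silent sensitive cells. Among the channel genes that missed eligibility, Ano1, a calcium-activated chloride channel known as a heat sensor in mouse sensory neurons, was at 10 CPM in 3 of 13 warm-sensitive and 0 of 12 insensitive Gad1-positive cells, a difference of 0.92; it was picked after its values were seen.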
